A study of Mus musculus with 48 samples.

Results

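The Lingo family and its Nogo receptor partners were followed by the array probes of 7 genes, Lingo1, Lingo2, Lingo3, Lingo4, Rtn4, Rtn4r and Omg, of the 34844 gene names on the array. The members were selected on measured values. Lingo1 was chosen by its large ovariectomy fall in the medial prefrontal cortex (mPFC), and the other members were chosen by name as its relatives and partners. Each member had 1 probe, so 7 of 55681 probes were used.

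The series holds 48 Agilent mouse arrays of 1 colour, 24 of RNA from the mPFC and 24 of RNA from whole blood of the same 24 female C57BL/6J mice, all 17 weeks old. Control mice (n = 6) had a sham operation and no stress. CUMS mice (n = 6) had a sham operation and weeks of chronic ultra-mild stress, a schedule of cage tilting, soiled or small cages, cage switching and disturbed light. OVX mice (n = 6) had a bilateral ovariectomy, which removes the main source of ovarian hormones, and no stress, and OVX+CUMS mice (n = 6) had the ovariectomy and the stress. All mice were anesthetized with pentobarbital before the tissues were taken, and the mPFC was dissected by hand from thick slices, so each array averages all cell types of the piece. Fewer cells of a type and less RNA per cell cannot be told apart in such samples. In the published study, the blood arrays of these mice served to select candidate blood markers of late-onset depression in patients. The brain was kept for later work.

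Lingo1 is a membrane protein with leucine-rich repeats and an immunoglobulin domain, made by neurons and oligodendrocytes, and Lingo2, Lingo3 and Lingo4 are its paralogs. Lingo1 joins the Nogo receptor (Rtn4r), together with Ngfr or Tnfrsf19, in a neuronal surface complex that receives growth-inhibiting signals from myelin. The ligands are Nogo (Rtn4), oligodendrocyte myelin glycoprotein (Omg) and myelin-associated glycoprotein (Mag), and the complex acts on the growth cone of the axon. In oligodendrocyte precursors, Lingo1 is known as a brake on myelination.

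The 60-base probes differ in their bases, and the 3′ ends of 5 of them are shown for comparison. They are the last 30 bases as the array files list them, 5′ to 3′, with runs of 3 or more A in capitals. Lingo1 is the member with the large change, Lingo2, Lingo3 and Lingo4 are its paralogs, and Rtn4r is the member with the second lowest share of G and C.
Lingo1: atgAAAActtgAAAtaatAAAAAgAAAAAA
Lingo2: actatAAAtAAAggcatgtgcctagttttg
Lingo3: aggacacgaatgactgggttgactggcatt
Lingo4: tgtccgcggttcccagtgttgtgtattcca
Rtn4r: tacttgtgtAAAAtatcggatgacgtggaa

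The Lingo1 probe (transcript NM_181074) was the most unusual of the 7 in its bases. G and C made up 18.3% of it, and only 0.0353% of the 28358 probes detected in the mPFC had a share as low or lower. Of its last 30 bases, 21 were A, a number reached by 0.0846% of the detected probes. The other 6 probes held between 31.7% (Rtn4r) and 45% (Lingo3 and Lingo4) G and C, against a median of 43.3% over the detected probes.

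In the mm9 mouse genome, the files place the Lingo1 probe on the minus strand at chr9:56466922-56466981. The Lingo2 probe lies on the minus strand at chr4:35654655-35654714, and the Lingo3 probe on the minus strand at chr10:80295824-80295883. The Lingo4 probe lies on the plus strand at chr3:94208322-94208381. The Rtn4r probe lies on the plus strand at chr16:18152423-18152482, and the Omg probe on the minus strand at chr11:79314993-79315052. The Rtn4 probe spans 208 bases of genome at chr11:29641510-29641717 with its 60 bases, so it crosses an intron. The files do not say which exon or untranslated region the others lie in, and no mm9 annotation was used here.

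Values are the log2 of the background-subtracted signal minus the 75th percentile of the array, so 0 is the signal below which 75% of the probes of that array lie. A probe was called detected when it was well above background on all 24 arrays of a tissue. All 7 members were detected in the mPFC and only Rtn4 in blood. On the mPFC arrays, all 4 listed neuron markers and all 4 markers of excitatory cortical neurons were detected, as were all 5 striatum markers, 2 of 3 choroid plexus markers and 3 of 4 erythroid markers. The arrays lay on 3 slides of 8 in each tissue. In both tissues slide 1 held the 6 control mice and 2 CUMS mice, slide 2 held the other 4 CUMS mice and 4 OVX mice, and slide 3 held the other 2 OVX mice and the 6 OVX+CUMS mice. Control and ovariectomized mice therefore never shared a slide.

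Lingo1 was high in control mice and low in all ovariectomized mice. In control mice its value was 1.47 at the lowest, 1.69 at the median and 1.92 at the highest (mean 1.69 ± 0.19, SD, n = 6). In OVX mice it was -1.50, -1.19 and -1.0 (mean -1.21 ± 0.19, SD, n = 6). In OVX+CUMS mice it was -1.28, -1.05 and -0.86 (mean -1.06 ± 0.16, SD, n = 6). No array of either ovariectomized group reached the lowest control array, and the OVX and OVX+CUMS arrays overlapped each other. Of all detected probes, 21.0% did not overlap between OVX and control arrays and 17.2% between OVX+CUMS and control arrays. Before scaling, the processed signal ran from 1760 to 2550 among the controls, from 213 to 315 after ovariectomy alone and from 242 to 340.0 after ovariectomy with stress.

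CUMS mice fell into separate sets. Their values ran from -1.09 through a median of -0.84 to 1.72 (mean -0.08 ± 1.35, SD, n = 6), a spread far wider than in the other groups. The 2 CUMS mice whose arrays shared slide 1 with the controls had 1.72 and 1.59. The 4 CUMS mice on slide 2 had -0.71, -0.96, -1.03 and -1.09. Thus mice of 1 group, with the same surgery and the same stress, differed by 2.6 on the log2 scale between slides, a 6.06-fold difference. Taking all groups, the 8 arrays of slide 1 lay between 1.47 and 1.92, and the 16 arrays of slides 2 and 3 between -1.50 and -0.71.

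**Figure D1:**
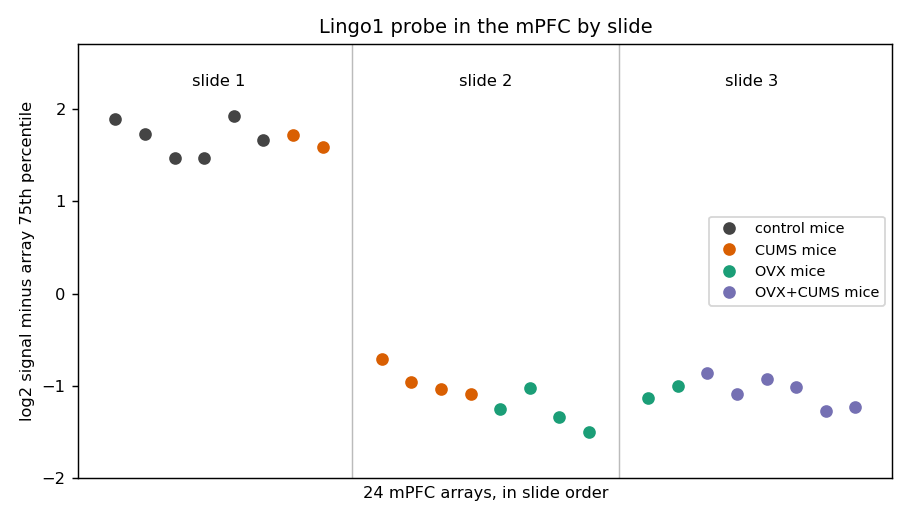
The Lingo1 probe on the 24 mPFC arrays in slide order (horizontal axis), as log2 signal minus the 75th percentile of the array (vertical axis), with 1 point per mouse coloured by group. The 8 arrays of slide 1, including 2 CUMS mice, lie above 1.4, and the 16 arrays of slides 2 and 3 lie below -0.7.

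The ovariectomy effect that chose Lingo1, the mean of both ovariectomized groups minus the mean of both sham-operated groups, was -1.94 ± 0.27 (log2, SE), the second lowest of 28358 detected probes. It is given as a description, since it chose the gene. The same fit with the slide as a block gave -0.35 ± 0.15. With the block, the value rests on arrays that share a slide. Within slide 2, the only slide that held ovariectomized and sham-operated mice, the 4 OVX mice (-1.50 to -1.03) averaged 0.33 lower than the 4 CUMS mice (-1.09 to -0.71), with overlap. This comparison also differs in stress.

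A slide difference of this size was rare among the probes. In CUMS mice, slide 2 was over 1 log2 unit away from slide 1 for 1.66% of the detected probes (470 of 28358), of which 439 were lower on slide 2 and 31 higher. Lingo1 was the fourth lowest of all. The fall that chose Lingo1 set mice of slides 2 and 3 against sham-operated mice that included all of slide 1. Its rank here is thus tied to that choice and is given as a description. The other members differed by between -0.28 (Rtn4r) and 0.23 (Lingo4) in the same comparison, and the median over all detected probes was 0.06. All arrays of slide 1 lay above, or all below, those of slides 2 and 3 for 9.24% of the detected probes, and among the members for Lingo1.

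Probes at both ends of the range of G and C moved with the slide more often than those between. Among 10 detected probes under 20% G and C, Lingo1 included, 30.0% were over 1 log2 unit lower on slide 2 than on slide 1 in CUMS mice, and their median difference was -0.75. Of 100 probes from 20% to 25%, 10.0% were that much lower, with a median of -0.30, and of 228 probes from 25% to 30%, 2.63% were. Leaving out the first set, which holds under 20 probes, the share still fell from 10.0% to 1.15% between the probes at 20% to 25% and those at 30% to 40%, and it rose again to 2.86% at 60% or more, where the median difference over 559 probes was -0.30. Over all 28358 probes, the share of G and C had almost no linear or rank relation to the slide difference (Pearson's r = -0.04 and Spearman's rank correlation 0.04 across probes of the same arrays, as a description). The part of the probe's bases in the Lingo1 result was not tested.

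**Figure D2:**
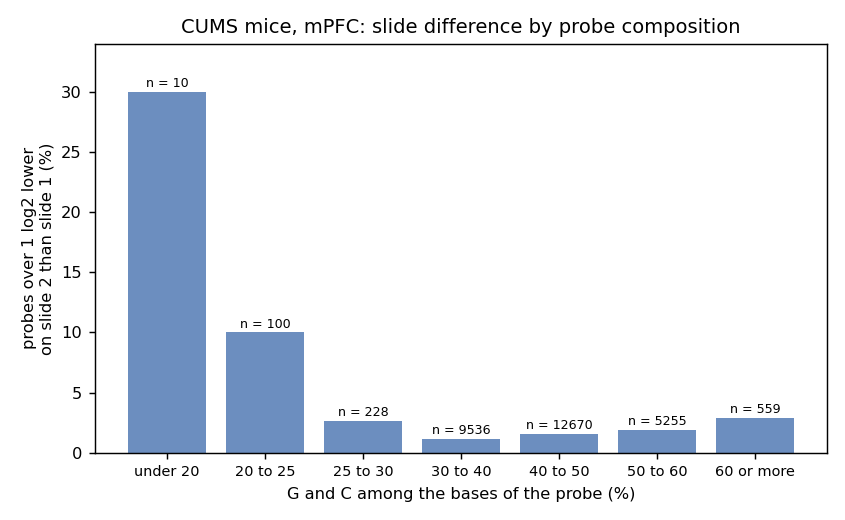
Detected mPFC probes in bins of the share of G and C among their bases (horizontal axis, %), with the share of each bin that was over 1 log2 unit lower on slide 2 than on slide 1 in CUMS mice (vertical axis, %) and the number of probes above each bar. The share is 30.0% in the lowest bin, which holds 10 probes with that of Lingo1 among them, and 1.15% to 2.86% in the bins from 30% up.

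Summed levels of cell type markers are given by slide as a description. The difference of Lingo1 between slides is tied to the fall that chose it, so it is not set beside theirs. The summed level of 7 oligodendrocyte genes, relative to the 75th percentile, had medians of 98.1 on slide 1 and 102 on slides 2 and 3. For 3 genes of oligodendrocyte precursors the medians were 17.5 and 20.4, and for 4 neuron genes 394 and 405. The 4 microglia genes ran from 49 to 54 on slide 1 and from 53.5 to 66.3 on slides 2 and 3, with little overlap. The medians of the striatum markers were 14.3 and 14.1, and those of the erythroid markers 29.9 and 30.0. The part of cell composition in the Lingo1 values was not tested.

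The rule that chose Lingo1 did not use the stress contrast, but for Lingo1 the contrasts are not separate. Slide 1, where Lingo1 was high, held 6 control and 2 CUMS mice. The difference tied to the choice thus also enters the CUMS effect, and the p-values of Lingo1 below are given as a description. In the mPFC, limma called 4.19% of the detected probes for CUMS at an adjusted p of 0.05, and 0 of the 7 members, with 2 members (Lingo1 and Omg) under an unadjusted p of 0.05. The unmoderated model also called 0. For Lingo1 the CUMS effect was -0.81 ± 0.27 (log2, SE; adjusted p = 0.075). It passed the threshold when either CUMS array of slide 1 was left out (-0.99, adjusted p = 0.0090 without replicate 1 and -0.98, adjusted p = 0.0091 without replicate 2), and fell to -1.25 (adjusted p = 4.72e-10) without both. Without both, no CUMS mouse shared a slide with a control mouse, and 6212 of 28353 probes were called for CUMS, against 1189 in the main fit. With each array shifted by its spike-in probes instead of its 75th percentile, the Lingo1 effect also passed (-0.93, adjusted p = 0.000279). Within slides it was near 0. The 2 CUMS mice of slide 1 averaged 0.04 below its 6 control mice (a log2 difference of -0.04), and the 6 OVX+CUMS mice of slide 3 differed by 0.00 from its 2 OVX mice. The fit with slide as a block gave a CUMS effect of -0.02 ± 0.10 (adjusted p = 0.989).

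The interaction asks whether stress changed a gene differently in ovariectomized and sham-operated mice. It was called for 4.49% of the detected probes and for 1 of the 7 members, Lingo1 (1.91 ± 0.53, log2, SE; adjusted p = 0.0449). The high control values enter both this interaction and the ovariectomy fall that chose Lingo1, on the same arrays. Nothing is therefore read from the Lingo1 call, and its p-values below are given as a description. The Lingo1 call was lost when any of 20 of the 24 arrays was left out (adjusted p 0.00328 to 0.0921 over the 24). It was kept without CUMS replicate 1 or 2 or OVX replicate 5 or 6. Without both CUMS arrays of slide 1, no CUMS mouse shared a slide with a control mouse, and 6725 of 28353 probes were called. There the Lingo1 interaction was 2.78 (adjusted p = 7.6e-11). In the fit with slide as a block it was 0.04 ± 0.19 (adjusted p = 1.000). The blocked fit called 0 of 28358 probes for the interaction (649 at an unadjusted p under 0.05), 0 for OVX (1880) and 0 for CUMS (2083).

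None of the 3 paralogs separated slide 1 from the other slides. Lingo2 had 1.13, 1.21 and 1.27 (lowest, median and highest) in control mice and 0.92, 1.09 and 1.21 in CUMS mice. It had 0.89, 1.33 and 1.39 in OVX mice and 0.97, 1.11 and 1.39 in OVX+CUMS mice. In CUMS mice 5 of 6 arrays lay below the lowest control array, while the ovariectomized groups spread to both sides of the control range. Its CUMS effect was -0.12 ± 0.06 (log2, SE; adjusted p = 0.235) and its ovariectomy effect 0.04 ± 0.06.

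Lingo3 overlapped in all groups. Control mice had 1.01, 1.34 and 1.81, CUMS mice 1.28, 1.34 and 1.65, OVX mice 1.23, 1.31 and 1.60, and OVX+CUMS mice 0.95, 1.36 and 1.49. The CUMS effect was -0.02 ± 0.08 (adjusted p = 0.888) and the ovariectomy effect -0.08 ± 0.08. The Lingo4 probe had signals of 99.7 to 200 processed units over all mPFC arrays and was well above background on each. Control mice had -2.58, -2.28 and -1.78, CUMS mice -2.56, -2.42 and -2.17, OVX mice -2.6, -2.48 and -2.24, and OVX+CUMS mice -2.42, -2.28 and -1.78. The groups overlapped, and the interaction was 0.36 ± 0.17 (adjusted p = 0.194).

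Rtn4r, the Nogo receptor that binds the myelin ligands, was highest in control mice and lowest in OVX mice. Control mice had 2.83, 2.98 and 3.15, CUMS mice 2.63, 2.89 and 3.13, OVX mice 2.55, 2.64 and 2.82, and OVX+CUMS mice 2.65, 2.87 and 2.99. All 6 OVX arrays lay below the lowest control array, and 4 of the 6 OVX+CUMS arrays lay above the highest OVX array, while CUMS and OVX+CUMS mice overlapped throughout. The OVX and control arrays, which lay on different slides, did not overlap for 21.0% of the detected probes. Its ovariectomy effect was -0.19 ± 0.06 (log2, SE), and -0.03 ± 0.11 with slide as a block. Like Lingo1, it was higher on slide 1, where the 2 CUMS arrays had 3.00 and 3.13, than on slide 2, where the 4 CUMS arrays ran from 2.63 to 2.96, and the slide's part in its group differences was not tested. The CUMS effect was 0.04 ± 0.06 (adjusted p = 0.709) and the interaction 0.31 ± 0.11 (adjusted p = 0.0974). The interaction passed the threshold without CUMS replicate 2 (0.36, adjusted p = 0.0264) and without both CUMS arrays of slide 1 (0.41, adjusted p = 0.00695). In the latter fit no CUMS mouse shared a slide with a control mouse, and 6725 of 28353 probes were called.

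Of the ligands, Rtn4, which encodes Nogo and is also an abundant protein of the endoplasmic reticulum, overlapped in all groups. Control mice had 3.57, 3.74 and 4.09, CUMS mice 3.52, 3.8 and 3.95, OVX mice 3.76, 3.81 and 3.96, and OVX+CUMS mice 3.59, 3.77 and 3.87. The group means lay within 0.07 of each other, less than the widest SD of a group (0.18). The ovariectomy effect was 0.01 ± 0.05, the CUMS effect -0.03 ± 0.05 (adjusted p = 0.806) and the interaction -0.09 ± 0.11 (adjusted p = 0.660; log2, SE). The probe is assigned to 1 transcript (NM_194054), and whether it reads other Rtn4 isoforms was not tested.

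Omg, the myelin glycoprotein that oligodendrocytes and neurons carry on their surface, was lowest in CUMS mice. It had 4.32, 4.45 and 4.54 in control mice and 4.03, 4.22 and 4.38 in CUMS mice. It had 4.38, 4.43 and 4.50 in OVX mice and 4.37, 4.43 and 4.58 in OVX+CUMS mice. In CUMS mice, 5 of 6 arrays lay below the lowest control array, whereas the OVX and OVX+CUMS arrays overlapped with each other and with the controls.

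Among CUMS mice, Omg differed little between slides. They had 4.03 and 4.38 on slide 1 and 4.18 to 4.28 on slide 2, a mean difference of 0.02 between slides. Within slide 2, the 4 CUMS arrays lay below all 4 OVX arrays (4.38 to 4.50), a difference of 0.20, and 11.0% of the detected probes did not overlap between these arrays. Within slide 1, the 2 CUMS mice (4.03 and 4.38) averaged 0.23 lower than the 6 controls (4.32 to 4.54), a log2 difference of -0.23 with overlap. Within slide 3, the 6 OVX+CUMS and 2 OVX mice differed by 0.00. The interaction with slide as a block, given below, rests on these differences within slides 1 and 3.

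In the tests, the CUMS effect on Omg over all mice was -0.10 ± 0.04 (log2, SE; adjusted p = 0.118) and the interaction 0.23 ± 0.07 (adjusted p = 0.0677), so neither passed. The interaction with slide as a block was 0.23 ± 0.11 (adjusted p = 1.000, unadjusted p = 0.0465 by limma). The interaction passed under 3 other scalings (adjusted p 0.0348 to 0.0436), without CUMS replicate 2 (0.26, adjusted p = 0.0181) and without both CUMS arrays of slide 1 (0.23, adjusted p = 0.0165), and the CUMS effect passed without these arrays (-0.09, adjusted p = 0.0452), without CUMS replicate 2 (-0.11, adjusted p = 0.0412) and with quantile normalization (-0.12, adjusted p = 0.0485). Without both CUMS arrays of slide 1, no CUMS mouse shared a slide with a control mouse. With the spike-in shift the interaction was 0.02 (adjusted p = 0.969). The summed level of the oligodendrocyte markers was 89.9 to 111 in CUMS mice and 87.3 to 158 in control mice, and its part in the Omg values was not tested. The ovariectomy effect was 0.12 ± 0.04, as a description, and -0.0084 with the spike-in shift.

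**Figure D3:**
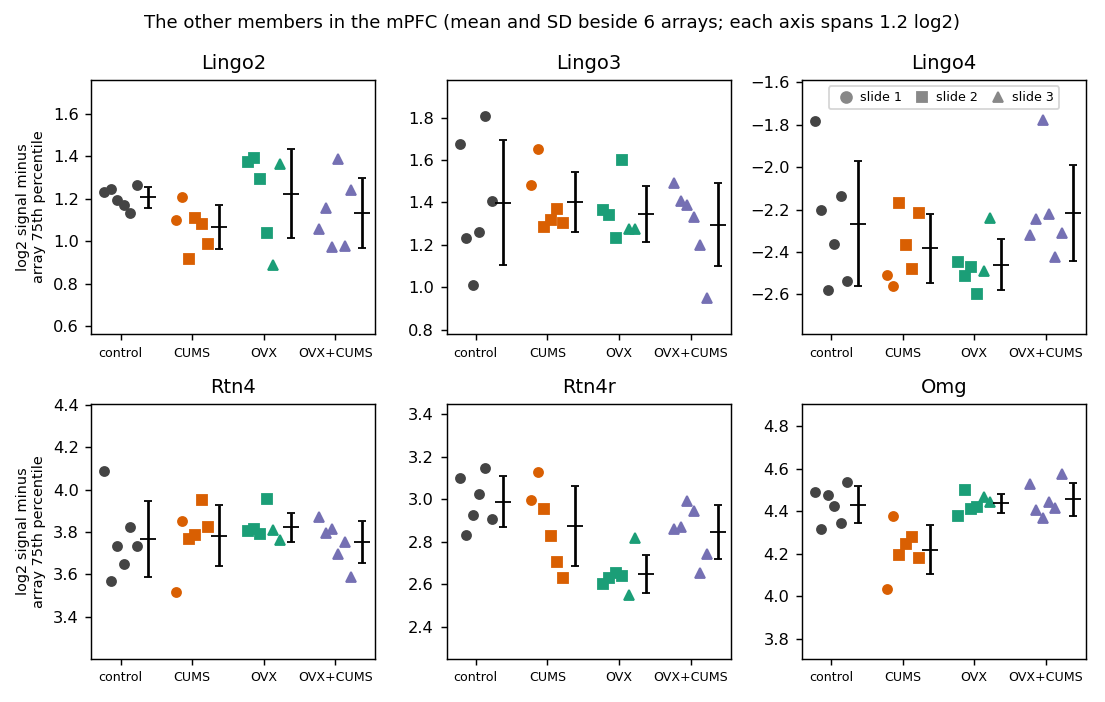
The other 6 members in the mPFC, a panel each, as log2 signal minus the 75th percentile of the array (vertical axes, each spanning 1.2) by group (horizontal axes), with 1 point per mouse, its shape giving the slide, and the mean and SD (n = 6) beside each group. Rtn4r is lowest in OVX mice (mean 2.65) and Omg in CUMS mice (mean 4.22), while Lingo2, Lingo3, Lingo4 and Rtn4 overlap between control and every other group.

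Over the ovariectomy contrast, 3 of the 7 members passed the threshold (Omg up, Lingo1 and Rtn4r down; with the spike-in shift only Lingo1 passed, and with quantile normalization or normexp Omg did not), beside 30.9% of the detected probes. The contrast chose Lingo1, so nothing is read from that count. The median change of the 7 members was -0.01 for ovariectomy, -0.03 for CUMS and 0.23 for the interaction, beside 0.04, 0.01 and -0.04 over all detected probes (log2). With slide as a block, 0 of the 7 passed in each of the 3 effects. Omg had an unadjusted p under 0.05 by limma for CUMS and for the interaction. For ovariectomy no unadjusted p is read, since that contrast chose Lingo1. Both Omg values rest on 1 difference, that of 2 CUMS from 6 control mice on slide 1 (-0.23), since slide 3 gave 0.00. They are not separate results.

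**Figure D4:**
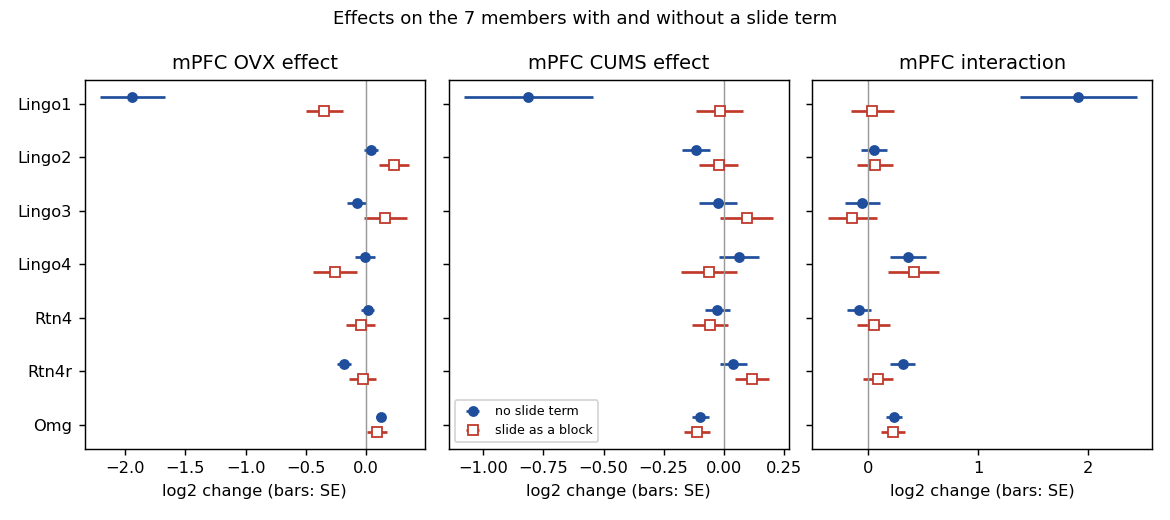
Ovariectomy effect, CUMS effect and interaction in the mPFC (a panel each, horizontal axes of different length, log2 change) for the 7 members (vertical axis), without a slide term (filled circles) and with slide as a block (open squares), with bars of 1 SE. Lingo1 moves from -1.94 to -0.35, from -0.81 to -0.02 and from 1.91 to 0.04 between the fits. The interaction of Omg is 0.23 in each, and with the block it rests on 2 CUMS arrays of slide 1 and 2 OVX arrays of slide 3.

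The genes whose detected mPFC probes were most like Lingo1 over the 24 arrays were ranked by Pearson's r. They were a transcribed region of chromosome 9 that the array names by its coordinates (r = 0.992), the organic anion transporter Slco1a5 (r = 0.991), a region of chromosome 10 named in the same way (r = 0.991), the survival gene Bcl2l2 (r = 0.990) and another region of chromosome 10 (r = 0.989). The 5 probes shared the slide pattern, since all arrays of slide 1 lay above all others for each of them. With the mean of each group on each slide removed, r with Lingo1 dropped to between 0.34 and 0.63. Their probes held 21.7% to 66.7% G and C. In all, 319 probes had r over 0.95 with Lingo1 and 14 had r under -0.95. Since the arrays form separate sets by slide, these values describe likeness over 24 arrays and carry no test.

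The wider pathway was followed in 27 genes, with 48 detected mPFC probes: coreceptors and other ligands, the other reticulons, and the growth cone machinery. For CUMS, 3 probes rose and 0 fell (6.25% called, beside 4.19% of all detected probes): 2 of the 4 probes of Olfm1, which encodes a secreted protein that binds the Nogo receptor (0.16 ± 0.04, adjusted p = 0.0320 and 0.13 ± 0.03, adjusted p = 0.0250), and 1 of the 2 probes of the growth cone GTPase Rac1 (0.12 ± 0.03, adjusted p = 0.0409). The other 45 did not pass. The interaction called 0 of the 48. For ovariectomy, 11 rose and 1 fell (25% called), a smaller share than the 30.9% of all detected probes. The kinase Wnk1 rose by 0.23 ± 0.04 on 1 of its 2 probes, the Rac activator Kalrn by 0.22 ± 0.06 on 1 of its 7, and Arhgdia by 0.22 ± 0.04 and 0.14 ± 0.04 on both of its probes, while Rock1, a kinase that acts on the actin cytoskeleton, fell by 0.23 ± 0.08 (log2, SE) on its 1 detected probe. None of the 48 probes passed for any of the 3 effects in the fit with slide as a block or with the spike-in shift, which turned the sign of 3 of the 12 ovariectomy calls (2 probes of Cfl1, a regulator of actin turnover, and 1 of Olfm1) and of the Rac1 call for CUMS.

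In whole blood, Rtn4 alone of the members was detected. The probes of Lingo1, Lingo2 and Omg were well above background on 0 of 24 blood arrays and that of Rtn4r on 1. The Lingo4 probe was well above background on 1 control, 3 CUMS, 5 OVX and 5 OVX+CUMS arrays, and the Lingo3 probe on 0, 2, 1 and 5. The 75th percentile of the blood arrays had medians of 110 (control), 90.1 (CUMS), 139 (OVX) and 125 (OVX+CUMS). It was highest in OVX and OVX+CUMS mice, the groups with 5 Lingo4 arrays above background each. The Lingo3 counts had another order, with 1 array in OVX mice, where the percentile was highest, and 2 in CUMS mice, where it was lowest. The part of array brightness in these counts was not tested. For the members not detected, no level in blood is given.

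The group means of Rtn4 in blood lay between 0.22 and 0.51, and the SD within a group between 0.14 and 0.33 (n = 6). It had -0.35, 0.41 and 0.57 in control mice and 0.08, 0.22 and 0.49 in CUMS mice. It had 0.28, 0.55 and 0.74 in OVX mice and -0.10, 0.23 and 0.58 in OVX+CUMS mice. Every group overlapped every other, and 1 control array (replicate 2) lay far below the other 5. By median the order was OVX, control, OVX+CUMS and CUMS mice.

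The ovariectomy effect on Rtn4 in blood was 0.09 ± 0.10 (log2, SE; adjusted p = 0.438), where 55.1% of the 20767 detected probes passed. The CUMS effect was -0.19 ± 0.10 (adjusted p = 0.121), where 48.5% passed. The interaction was -0.22 ± 0.20 (adjusted p = 0.636), where 1.42% passed. In all, 0 of 3 effects passed, and 0 of 3 had an unadjusted p under 0.05 by limma with or without moderation. The CUMS effect passed without control replicate 2 (-0.25, adjusted p = 0.0144) and with normexp background correction (-0.18, adjusted p = 0.0428), and the ovariectomy effect passed with the spike-in shift (0.44, adjusted p = 0.0383). The CUMS effect in blood minus that in the mPFC of the same mice was -0.16 ± 0.11 (adjusted p = 0.212), where 51.4% of 17544 probes detected in both tissues passed.

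**Figure D5:**
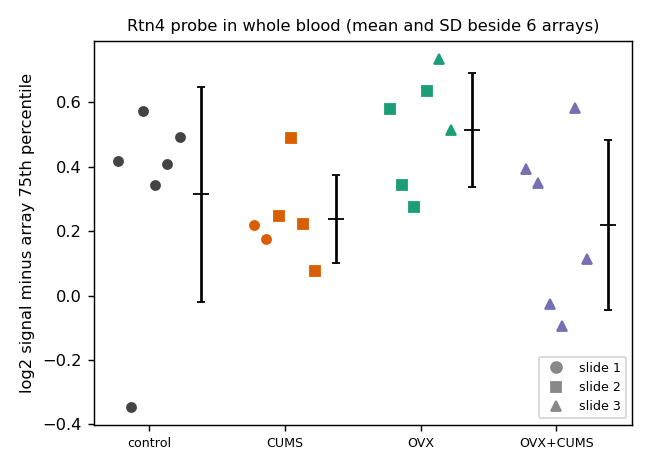
The Rtn4 probe in whole blood as log2 signal minus the 75th percentile of the array (vertical axis) by group (horizontal axis), with 1 point per mouse, its shape giving the slide, and the mean and SD (n = 6) beside each group. The groups overlap, and control replicate 2 lies at -0.35, apart from the other 5 control mice at 0.34 to 0.57.

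Of the wider pathway, 29 probes of 18 genes were detected in blood. For CUMS, 3 rose and 5 fell (27.6% called), a smaller share than the 48.5% of all detected blood probes. The Nogo receptor homolog Rtn4rl2 rose by 0.51 ± 0.12, the coreceptor Tnfrsf19 by 0.49 ± 0.19 on 1 of its 2 probes (0.03, adjusted p = 0.921 on the other) and Mag by 0.23 ± 0.09. The receptor phosphatase Ptprs fell by 0.45 ± 0.09, the kinase Rock2 by 0.42 ± 0.10 on 1 of its 2 probes (-0.16, adjusted p = 0.239 on the other) and the tetraspanin Tspan3 by 0.36 ± 0.10 (log2, SE). For ovariectomy, 4 rose and 6 fell (34.5% called), beside 55.1% of all detected blood probes. Ptprs rose by 0.47 ± 0.09, Tspan3 by 0.36 ± 0.10 and Dpysl2, a growth cone protein, by 0.31 ± 0.11. Tnfrsf19 fell by 0.72 ± 0.26 and 0.46 ± 0.19 on its 2 probes and Rtn4rl2 by 0.52 ± 0.12. The interaction called 0 of the 29. The split of the ovariectomy calls depended on the scaling. With the spike-in shift 11 rose and 0 fell, with normexp 7 rose and 3 fell, and with quantile normalization 6 rose and 4 fell. For CUMS the spike-in shift gave 0 up and 4 down, normexp 2 up and 8 down, and quantile normalization 2 up and 6 down. In the fit with slide as a block, 9 probes passed for CUMS (3 up and 6 down), which held 7 of the 8 above. Mag did not pass there (0.17, adjusted p = 0.171). The block left 0 calls for ovariectomy and turned the sign of 3 of the 10, both Tnfrsf19 probes among them (0.01 and 0.14), and the spike-in shift turned 2 (1 probe each of Arhgdia and Cfl1).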

How the data were processed

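RNA of mPFC and blood of 24 mice was measured on 48 one-colour arrays, and groups came from the sample labels. Per the file headers, the authors quantified and background-subtracted the intensity of the spots in Feature Extraction (version 10.7.3.1). The log2 values of the deposited table were made by the authors by a 75th percentile shift per array. Among the values of 55249 probes with 1 spot, 100.0% lay within 0.001 of those computed here, up to 1 constant per array, so their scale and direction are settled and no gene was centred. The median of their columns ran from -3.89 to -3.54 in mPFC and from -2.96 to -2.66 in blood. Human samples were not analysed here.

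Spots marked as outliers were left out, the log2 values of the remaining spots were averaged by probe, and each array was shifted by the 75th percentile of its probes. Detected probes were well above background on all 24 arrays of a tissue, with a signal over 50 on at least 2, which left 28358 probes in mPFC and 20767 in blood. The precision is limited by the number of arrays. The 75th percentile was 572 to 689 in mPFC and 54.9 to 192 in blood. Surgery, stress and their interaction were fitted in R 4.3.3 by limma (version 3.58.1), moderating the spread, and two-sided p-values were adjusted over all detected probes by Benjamini-Hochberg, at 0.05. The tissue difference of CUMS used the mouse as a random block (correlation 0.059). The fit of surgery, stress and their interaction, without a slide term, was tested on simulated data that held no slide effect. That test does not bear on the part of the slide.

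The members, gene lists and tests were chosen with earlier results of these data known. All member probes are named, as are up to 3 pathway probes per direction and the 5 genes most like Lingo1. Gene symbols were updated through RefSeq accessions of the GRCm38.p6 assembly. The results were recomputed with quantile normalization, with normexp (offset 50), with a spike-in shift, with the percentile of detected probes only, with the authors' log2 values, without moderation, without the detection filter, with the slide or the replicate number as a block, and without each array in turn. Leaving out both CUMS arrays of slide 1 was added after the data were seen.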

Additional observations from a re-analysis of the deposited data

Results flagged for a closer look

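In groups of 6 arrays, a value was noted when its gap to the next array took up more of the range of the group than Dixon's critical value for 6 samples allows, which chance does in about 1 of 20 groups. Of 32 groups of detected members, 4 had such a value. Lingo3 was 1.60 in the mPFC of OVX replicate 4, with 1.36 in the next mouse. Lingo4 was -1.78 in the mPFC of OVX+CUMS replicate 3, with -2.22 in the next mouse. Rtn4 was 3.96 in the mPFC of OVX replicate 4, with 3.81 in the next mouse. Rtn4 was -0.35 in the blood of control replicate 2, with 0.34 in the next mouse.

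The interaction of Lingo1 in the mPFC was 1.91 (limma, adjusted p = 0.0449), on the same arrays that chose the gene. All controls lay on slide 1 and 4 of the CUMS mice on slide 2, so slide and stress cannot be fully told apart in it. The call was lost when any of 20 of the 24 arrays was left out. With slide as a block the interaction was 0.04.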

How the results depend on the processing

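With 6 mice a group and the groups lying on different slides, slide and group cannot be fully told apart, and arrays limit precision by their number and, in blood, by a low signal over background. Where a count moved, the cause was not tested, except that fewer arrays or more probes entered by construction. In mPFC the main counts were 8751 probes and 3 members for ovariectomy, 1189 and 0 for CUMS and 1273 and 1 for the interaction. The spike-in shift, which moved the median of all probes by -0.13, -0.12 and -0.21, gave 2205 and 1, 140 and 1, and 114 and 1, and turned the ovariectomy effect of Omg from 0.12 to -0.0084. Slide as a block gave 0 probes and 0 members for each of the 3 effects. Quantile normalization and normexp called 2 members each for ovariectomy (Omg was lost). Quantile normalization called 1 member for CUMS and 2 for the interaction, and normexp and the percentile over detected probes called 2 each for the interaction. Without a detection filter 25 probes were called for CUMS, and 1 probe and 0 members for the interaction. Without moderation the interaction had 716 probes and 0 members. Without both CUMS arrays of slide 1, ovariectomy had 6485 probes and 2 members (Rtn4r was lost), CUMS had 6212 probes and 2 members and the interaction 6725 and 3.

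Leaving out 1 array at a time gave 224 (CUMS replicate 6) to 3328 (CUMS replicate 2) probes and 0 to 2 members for CUMS in mPFC, and 1 (control replicate 1) to 3854 (CUMS replicate 1) probes and 0 to 3 members for the interaction. In blood it gave 0 to 1 member for CUMS and 0 (control replicate 1) to 1984 (CUMS replicate 2) probes for the interaction. In blood the main counts were 11447 probes for ovariectomy, 10072 for CUMS and 294 for the interaction, with 0 members each. The spike-in shift, which moved the medians by 0.35, -0.18 and 0.17, called 1 member for ovariectomy and 3420 probes for CUMS. No detection filter gave 18309 probes and 1 member for ovariectomy, 1 member for CUMS and 0 probes for the interaction. Normexp called 1 member for CUMS and 1073 probes for the interaction, quantile normalization 491 and no moderation 12 for the interaction, and slide as a block 0 for ovariectomy and 0 for the interaction.

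A replicate number is shared by unrelated mice across groups. Same-numbered arrays had a mean correlation of deviations of 0.06 in mPFC and -0.04 in blood. With the replicate number as a block, the mPFC interaction had 618 probes and 0 members and the blood interaction 0 probes (3301 at an unadjusted p under 0.05 by limma), and no other count of calls moved by over 1.5 times. The difference of the CUMS effect between blood and mPFC called 0 members in all 6 alternatives run, with no detection filter and no moderation not run for it.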
